A study of Mus musculus with 12 samples.

Results

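The 8 genes described here encode factors by which bone marrow stroma maintains blood stem and progenitor cells: the ligands *Cxcl12*, *Kitl*, *Il7* and *Csf1*, the leptin receptor *Lepr*, the adipokine *Adipoq*, and the transcription factors *Ebf3* and *Foxc1*. They were chosen by name from the 37620 genes of the deposited count table and found by their Ensembl identifiers, and all 8 were measured in every library. RNA came from bone endothelial cells (BECs) purified with an antibody to endomucin, a sialomucin of capillary and venous endothelium, and the labels give the tibia as the tissue. The mice were of the c57/Bl6 strain, untreated and without a transgene as far as the labels say, and were female or male and 2 weeks (young) or 65 weeks (old) of age, with 3 libraries in each of the 4 groups. The libraries were the best of each set by RNA quality according to the study's methods. The labels do not say whether the libraries of a group came from separate animals, so the p-values below measure the spread between these libraries only.

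Library totals were 35012947 to 44569600 counts at 2 weeks and 26044743 to 34088694 at 65 weeks. Values are given as CPM, the count of a gene scaled by the library total, and 3 counts in a library amounted to 0.0673 to 0.115 CPM. The purified cell type was checked against 15 endothelial marker genes. Their summed level was 2888 to 5244 CPM in the 2-week libraries and 187 to 301 CPM in the 65-week libraries, and *Emcn*, which encodes endomucin itself and was named for the purification, went from 115 to 227 CPM down to 2.80 to 6.98 CPM. Over the same libraries the summed level of 7 B cell markers was 18.8-fold higher at 65 weeks in females and 19.01-fold higher in males between the group means, and that of 8 neutrophil markers, of which 7 rose in females and 8 in males, was 2.46-fold and 5.64-fold higher. Most of the B cell sum was *Ighm*, the immunoglobulin heavy chain, and the other 6 markers together were 3.0-fold higher in females and 2.91-fold higher in males. These shifts in the make-up of the RNA moved with age, and their part in the age differences below was not tested.

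As background, the marrow holds perivascular reticular cells, rich in CXCL12 and marked by the leptin receptor, that wrap the sinusoidal vessels. They supply the chemokine CXCL12 and stem cell factor (the product of *Kitl*) to haematopoietic stem cells, interleukin 7 to developing B cells and macrophage colony-stimulating factor (the product of *Csf1*) to monocytes, macrophages and osteoclast precursors. *Ebf3* and *Foxc1* are transcription factors that keep these stromal cells in their niche-forming state, and *Adipoq* marks the adipocyte-primed reticular cells as well as fat cells. Endothelial cells also make CXCL12 and stem cell factor, so these transcripts do not belong to reticular cells alone.

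All 8 factors fell with age in both sexes. The fall was largest for *Il7* in males, 20.1-fold between the group means, and smallest for *Csf1* in males, 3.19-fold. By edgeR's quasi-likelihood test with Benjamini-Hochberg adjustment over all genes tested, 8 of 8 were lower at 65 weeks in females, where 29.5% of all genes tested were lower and 30.2% were higher, and 8 of 8 were lower in males, where 28.5% were lower and 27% were higher. The 2-week and 65-week libraries of a sex did not overlap for any of the 8 factors, which was also so, in the direction of lower at 65 weeks, for 41.6% of all genes in females and 39.4% in males. The median log2 fold change of the 8 was −2.46 in females and −2.72 in males, beside 0.01 for all genes in each sex. In RNA from a bulk preparation, fewer cells of a type and less RNA per cell cannot be told apart.

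**Figure D1:**
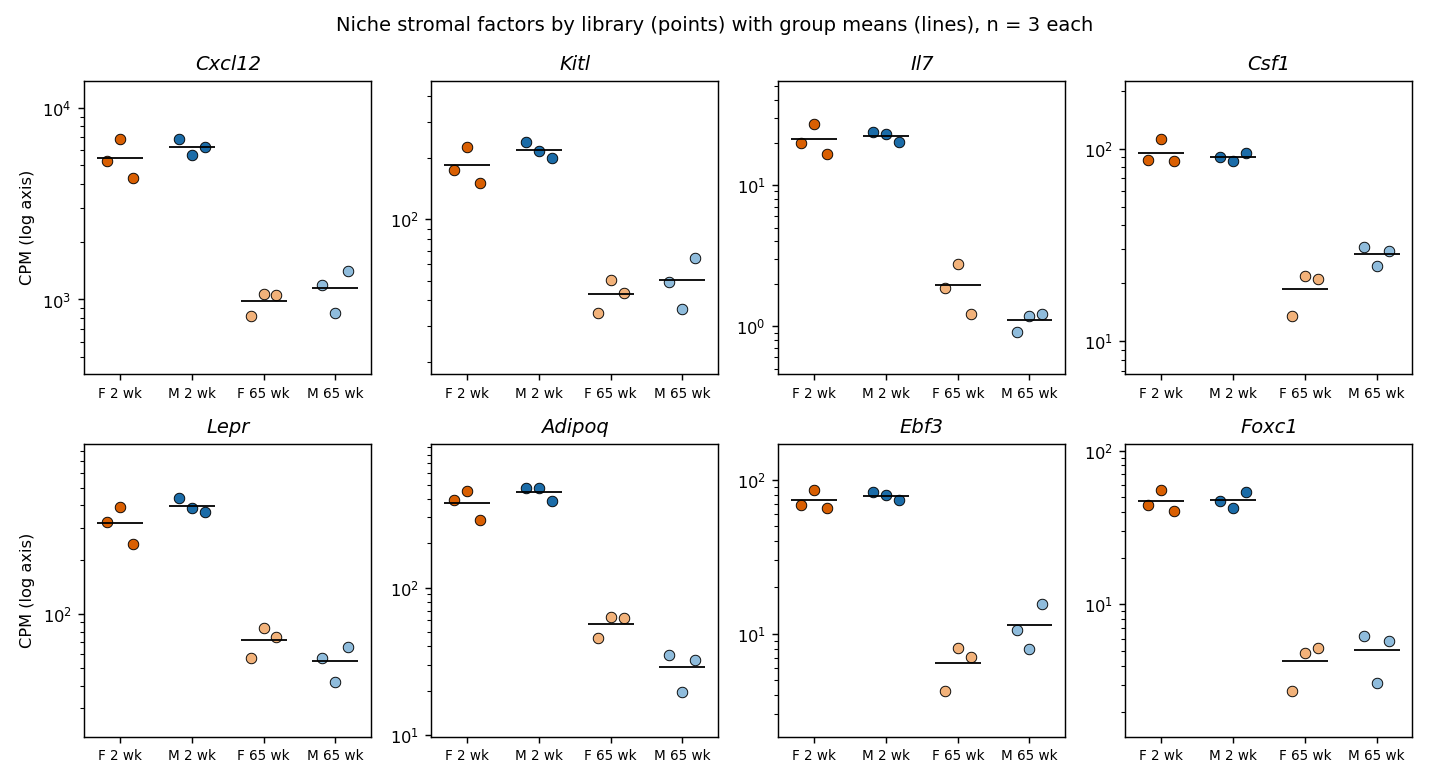
CPM of each factor (log axis, with a separate scale for each gene) in the 12 libraries, grouped as females (F) and males (M) at 2 and 65 weeks; each point is 1 library and each line the mean of 3. In all 8 panels the 2-week points lie above the 65-week points, and at 65 weeks the male points lie below the female points for *Adipoq* and above them for *Csf1*.

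*Cxcl12* (ENSMUSG00000061353, GRCm39 chromosome 6, 117144945 to 117158328, plus strand) encodes the chemokine that retains stem cells and B cell precursors in the marrow. It reached 5286, 6837 and 4328 CPM in the 3 female libraries of 2 weeks and 6895, 5681 and 6211 CPM in the 3 male ones. At 65 weeks it stood at 816, 1074 and 1050 CPM in females and at 1195, 851 and 1408 CPM in males. Every 2-week library was thus above every 65-week library, and the sexes overlapped at both ages. Its transcripts made up 0.433% to 0.689% of all counts at 2 weeks and 0.0816% to 0.141% at 65 weeks. The log2 fold change with age was −2.34 (SE 0.174, adjusted p = 1.74e-05) in females and −2.33 (SE 0.196, adjusted p = 4.60e-05) in males. Between the group means of CPM, which are scaled by the library total only, it was 5.59-fold and 5.44-fold lower.

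The sequences upstream of the factors are shown because the 8 genes fell together. RefSeq windows of GRCm38.p6 were found for 7 of the 8 genes (*Lepr* has 2 start sites, and *Il7* has none in the table), and the 250 bases before each start were searched on both strands for 3 motifs: CCCNNGGGA, the core recognised by early B cell factors, TGTTTAC, a forkhead motif, and TATAAA, the TATA box. Among 32851 promoter windows of this length, 5.60% held the first, 3.17% the second and 12.4% the third. The window of *Cxcl12*, chr6:117168285-117168534 on the plus strand, held none of the 3 and has a GC content of 64.4%.
Cxcl12: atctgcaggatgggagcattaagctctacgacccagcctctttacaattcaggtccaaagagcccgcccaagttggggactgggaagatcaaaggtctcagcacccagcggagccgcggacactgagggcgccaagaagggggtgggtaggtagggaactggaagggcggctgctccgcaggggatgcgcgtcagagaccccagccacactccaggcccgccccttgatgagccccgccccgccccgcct

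*Kitl* (ENSMUSG00000019966, chromosome 10, 99851492 to 99936278, plus strand) encodes stem cell factor, the ligand of the receptor tyrosine kinase KIT. Levels were 175, 225 and 151 CPM in young females and 238, 217 and 199.5 CPM in young males. They were 34.8, 50.6 and 43.4 CPM in old females and 49.5, 36.2 and 64.9 CPM in old males. The highest library of 65 weeks was still below the lowest of 2 weeks. The log2 fold change was −1.95 (SE 0.175, adjusted p = 4.22e-05) in females and −2.01 (SE 0.192, adjusted p = 8.66e-05) in males. The window upstream of *Kitl*, chr10:100015571-100015820 on the plus strand, is shown for its TATA box, in capitals, 25 to 20 bases before the start.
Kitl: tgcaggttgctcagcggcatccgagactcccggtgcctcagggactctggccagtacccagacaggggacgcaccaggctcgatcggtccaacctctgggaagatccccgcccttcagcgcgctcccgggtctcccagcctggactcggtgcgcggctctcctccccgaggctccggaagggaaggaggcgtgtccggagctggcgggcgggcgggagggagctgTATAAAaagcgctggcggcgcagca

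*Il7* (ENSMUSG00000040329, chromosome 3, 7635054 to 7678825, minus strand) encodes the cytokine that B cell precursors need to grow. It was the least abundant of the 8 per kilobase of exon, with 19.9, 27.3 and 16.6 CPM in young females and 23.9, 22.8 and 20.1 CPM in young males. At 65 weeks it was 1.86, 2.76 and 1.23 CPM in females and 0.915, 1.19 and 1.23 CPM in males, which rests on 36 to 94 counts a library in females and 25 to 32 in males. *Il7* had the largest fall of the 4 ligands in both sexes. Its log2 fold change was −3.29 (SE 0.298, adjusted p = 4.50e-05) in females and −4.21 (SE 0.175, adjusted p = 1.75e-06) in males. Between the group means of CPM it was 10.9-fold and 20.1-fold lower.

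*Csf1* (ENSMUSG00000014599, chromosome 3, 107648364 to 107667806, minus strand) encodes the growth factor of macrophages and osteoclasts. The 2-week libraries held 87.3, 112 and 86.1 CPM in females and 90.8, 86.2 and 94.4 CPM in males. Those of 65 weeks held 13.5, 21.7 and 20.98 CPM in females and 30.96, 24.6 and 29.4 CPM in males. The sexes overlapped at 2 weeks, and at 65 weeks every male library was above every female one. Its log2 fold change with age was −2.20 (SE 0.188, adjusted p = 3.28e-05) in females and −1.56 (SE 0.115, adjusted p = 2.36e-05) in males. The window of *Csf1*, chr3:107760470-107760719 read on the minus strand, is shown because it holds the early B cell factor motif, in capitals as its reverse complement, 148 to 140 bases before the start.
Csf1: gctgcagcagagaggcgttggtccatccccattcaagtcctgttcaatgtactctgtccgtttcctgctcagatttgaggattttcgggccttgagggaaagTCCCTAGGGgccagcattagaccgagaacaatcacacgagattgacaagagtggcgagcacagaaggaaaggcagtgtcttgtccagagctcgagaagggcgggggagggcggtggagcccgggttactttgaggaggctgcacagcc

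*Lepr* (ENSMUSG00000057722, chromosome 4, 101574601 to 101676237, plus strand) encodes the leptin receptor, the usual marker of reticular stromal cells. It was at 324, 393 and 246 CPM in young females and at 438, 388 and 368 CPM in young males. The 65-week libraries had 57.2, 83.6 and 74.6 CPM in females and 56.9, 41.8 and 65.7 CPM in males. Its fall was 4.47-fold between the group means in females (log2 fold change −2.02, SE 0.190, adjusted p = 5.49e-05) and 7.26-fold in males (log2 fold change −2.75, SE 0.170, adjusted p = 1.05e-05). *Lepr* thus passed the test in both sexes, with overlapping sexes at each age.

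*Adipoq* (ENSMUSG00000022878, chromosome 16, 22964106 to 22976810, plus strand) encodes adiponectin. Young females had 396, 450 and 287 CPM and young males 473, 473 and 388 CPM. Old females had 45.4, 63.7 and 62.4 CPM and old males 35.2, 19.5 and 32.6 CPM, so that every old male library was below every old female one. The log2 fold change with age was −2.58 (SE 0.189, adjusted p = 1.58e-05) in females and −3.82 (SE 0.239, adjusted p = 1.10e-05) in males. Because fat cells also make adiponectin, 8 other adipocyte genes were read in the same libraries. Their summed level was 62.3 CPM in young females, 63.1 CPM in young males, 45.8 CPM in old females and 35.4 CPM in old males, and *Lep*, which encodes leptin and was named as a defining gene of fat cells, was at 0 to 0.0688 CPM. Of those tested, 2 were higher and 2 lower with age in each sex, 2 of 6 in females and 3 of 7 in males did not pass, and the 4 most abundant went different ways: *Car3*, a carbonic anhydrase, fell from 39.3 to 6.94 CPM for females and from 39.4 to 3.97 CPM for males, while *Lipe*, the hormone-sensitive lipase, rose from 16.9 to 31.0 CPM and from 14.2 to 27.2 CPM. The other two were *Plin1*, a lipid droplet protein, at 2.81, 3.95, 0.523 and 0.376 CPM, and *Cfd*, adipsin, at 2.42, 4.60, 6.13 and 2.09 CPM, as the means of young females, young males, old females and old males. The window upstream of *Adipoq*, chr16:23146286-23146535 on the plus strand, has the lowest GC content of the 8 windows, 48.8%, and held none of the 3 motifs.
Adipoq: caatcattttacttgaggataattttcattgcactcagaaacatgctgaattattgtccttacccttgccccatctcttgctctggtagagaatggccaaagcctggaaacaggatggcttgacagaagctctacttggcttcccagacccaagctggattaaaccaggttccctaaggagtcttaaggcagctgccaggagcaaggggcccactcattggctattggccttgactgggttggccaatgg

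*Ebf3* (ENSMUSG00000010476, chromosome 7, 136795402 to 136916218, minus strand) and *Foxc1* (ENSMUSG00000050295, chromosome 13, 31990616 to 31996459, plus strand) encode the transcription factors. *Ebf3* was at 69.1, 86.1 and 65.9 CPM in young females and 83.2, 79.7 and 73.6 CPM in young males. It was at 4.27, 8.10 and 7.10 CPM in old females and 10.6, 7.96 and 15.7 CPM in old males. All old libraries were below all young ones, and the 2 sexes overlapped at both ages. The log2 fold change was −3.36 (SE 0.223, adjusted p = 1.05e-05) in females and −2.68 (SE 0.214, adjusted p = 3.43e-05) in males.

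*Foxc1* was at 44.2, 55.4 and 40.6 CPM in young females and 47.1, 42.3 and 53.6 CPM in young males. It was at 2.75, 4.81 and 5.22 CPM in old females and 6.22, 3.07 and 5.80 CPM in old males. Like *Ebf3* it fell without overlap of the ages, with a log2 fold change of −3.31 (SE 0.229, adjusted p = 1.26e-05) in females and −3.13 (SE 0.256, adjusted p = 3.97e-05) in males. Between the group means, *Ebf3* was 11.4-fold lower in females and 6.92-fold lower in males, and *Foxc1* 10.96-fold and 9.47-fold. The window of *Ebf3*, chr7:137314446-137314695 read on the minus strand, has the highest GC content of the 8, 80.0%, and holds the early B cell factor motif, in capitals as its reverse complement, 22 to 14 bases before the start. The *Foxc1* window and both *Lepr* windows held none of the 3 motifs.
Ebf3: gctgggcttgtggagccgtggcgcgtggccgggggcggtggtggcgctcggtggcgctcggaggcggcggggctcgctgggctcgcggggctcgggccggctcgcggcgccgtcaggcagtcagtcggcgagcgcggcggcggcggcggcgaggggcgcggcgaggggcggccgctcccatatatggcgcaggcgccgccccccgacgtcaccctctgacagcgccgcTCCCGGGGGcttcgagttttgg

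Levels were compared between the 8 factors only per kilobase of exon. On that scale *Cxcl12* was the highest in every group, with 657 ± 152 (SD, n = 3) CPM per kilobase in young females and 117 ± 17.1 in old females. *Adipoq* came next, with 166 ± 36.4 CPM per kilobase in young females, 195 ± 21.5 in young males, 25.1 ± 4.48 in old females and 12.8 ± 3.69 in old males. *Lepr*, *Kitl* and *Csf1* followed with 28.8 ± 6.63, 21.9 ± 4.54 and 16.2 ± 2.49 CPM per kilobase in young females, neighbours in order whose SDs overlapped. In young males the same 3 genes stood at 35.7 ± 3.25, 26.1 ± 2.31 and 15.4 ± 0.696 CPM per kilobase, and their SDs did not overlap. *Foxc1* (8.0 ± 1.32 in young females), *Ebf3* (6.41 ± 0.944) and *Il7* (3.75 ± 0.968) were the lowest. In old males *Kitl* (6.0 ± 1.71 CPM per kilobase) stood above *Lepr* (4.92 ± 1.08) and *Ebf3* (0.992 ± 0.341) above *Foxc1* (0.861 ± 0.292), in both cases by less than the spread.

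Most receptors of the 4 ligands went the other way. Of 6 receptor genes, 5 were higher and 1 was lower at 65 weeks in females, and 4 were higher, 1 was lower and 1 did not pass in males, with a median log2 fold change of 1.14 in females and 0.75 in males. *Cxcr4*, the CXCL12 receptor of blood cells, rose from a mean of 134 to 292 CPM for females (log2 fold change 1.26, SE 0.144, adjusted p = 0.000157) and from 113 to 264 CPM for males (1.34, SE 0.0989, adjusted p = 2.38e-05). *Kit*, the stem cell factor receptor, rose from 35.8 to 55.9 CPM for females and from 36.2 to 51.5 CPM for males. *Csf1r*, the receptor for the *Csf1* product and also one of the monocyte and macrophage markers, rose from 303 to 920 CPM for females and from 347 to 588 CPM for males. *Il2rg*, the common chain of the interleukin 7 receptor, rose from 24.7 to 45.6 CPM for females and was at 26.6 and 28.8 CPM in males (adjusted p = 0.403). *Il7r*, the specific chain of that receptor, rose from 6.19 to 13.8 CPM for females and from 5.03 to 15.3 CPM for males. The 1 receptor gene that fell in both sexes was *Ackr3*, a scavenging CXCL12 receptor of endothelial and stromal cells, from 3.48 to 0.321 CPM for females and from 4.51 to 0.596 CPM for males. At 65 weeks it rests on 7 to 13 counts a library in females and 13 to 19 in males. *Il7r* and *Ackr3* lie outside the 4 most abundant of the list, and both were picked with their values in view. Beside the receptors, B cell markers rose for 6 of 7 genes in both sexes, and monocyte and macrophage markers for 7 of 7 in females and 4 of 7 in males.

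**Figure D2:**
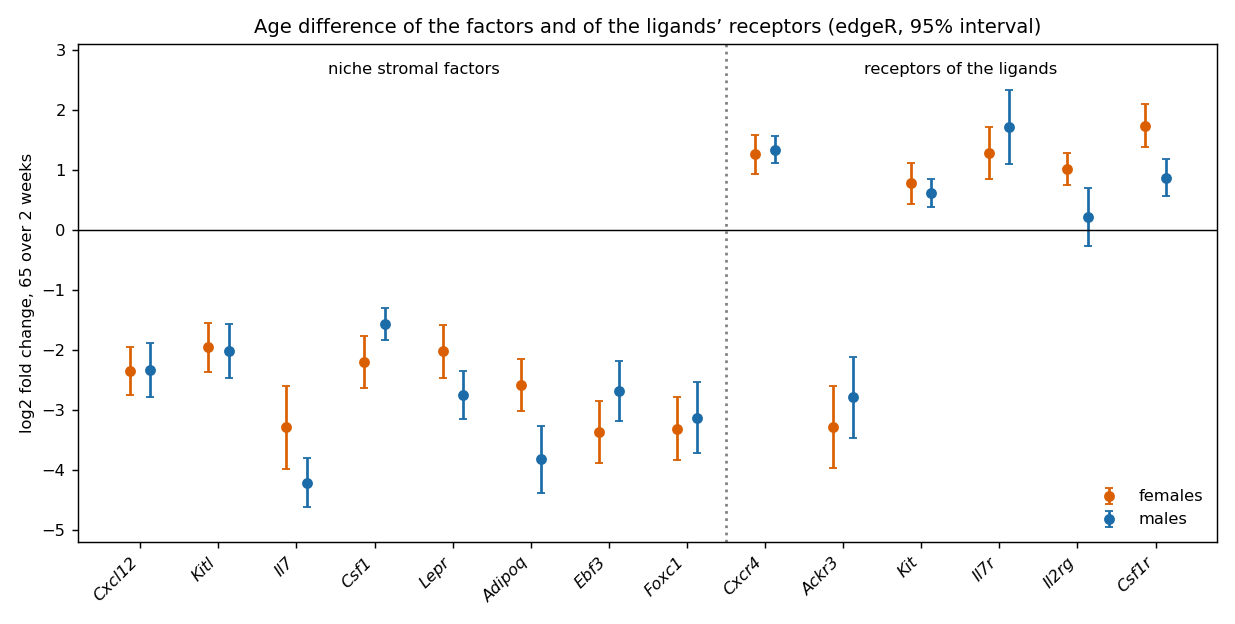
Log2 fold change from 2 to 65 weeks (points) with its 95% interval (bars) for the 8 factors and the 6 receptor genes, in females and males, each from 6 libraries. The 8 factors lie between −4.21 and −1.56, and of the receptors only *Ackr3* lies below 0, at −3.28 and −2.79.

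Other genes of reticular stromal cells were set beside the 8. Of 20 such genes, 16 fell and 1 rose in females and 17 fell and 2 rose in males, with a median log2 fold change of −2.05 and −1.98. The insulin-like growth factor binding proteins *Igfbp4* and *Igfbp5* fell from 2359 to 179 CPM and from 2549 to 259 CPM for females, and from 2753 to 294 CPM and from 2418 to 212 CPM for males. *Lpl*, lipoprotein lipase, fell from 946 to 204 CPM for females and from 1057 to 373 CPM for males. *Vcam1*, an adhesion molecule that macrophages also express, was at 1476 and 1311 CPM in females (log2 fold change −0.04, adjusted p = 0.789) and fell from 2150 to 1224 CPM for males (−0.71, adjusted p = 0.0365). The list as a whole therefore includes a very abundant gene whose level differed little with age in females. Of 14 other niche cytokines found in the table, 9 passed the filter on low counts in females and 10 in males, and of these 4 fell and 2 rose in each sex. *Igf1*, insulin-like growth factor 1, fell from 203 to 91.8 CPM for females and from 263 to 120 CPM for males, *Bmp4*, a bone morphogenetic protein, from 30.9 to 0.84 CPM and from 34.9 to 2.75 CPM, and *Il34*, the second ligand of the *Csf1r* product, from 9.48 to 4.05 CPM and from 15.1 to 5.30 CPM. *Pdgfc*, a platelet-derived growth factor, was at 23.6 and 23.5 CPM in females and at 33.7 and 29.8 CPM in males and did not pass the test (adjusted p = 0.348 and 0.813).

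Markers of endothelial cells and of several other cell types fell as well, while erythroid markers did not. All 15 endothelial markers were lower at 65 weeks in both sexes, with a median log2 fold change of −4.25 in females and −4.58 in males. Among them *Cdh5*, vascular endothelial cadherin, fell from 590 to 11.8 CPM for females and from 737 to 12.7 CPM for males, and *Kdr*, the main receptor for vascular endothelial growth factor, from 497 to 13.3 CPM and from 614 to 13.9 CPM. *Flt4*, the third receptor of that family, fell from 419 to 7.21 CPM and from 446 to 12 CPM. *Stab2*, a scavenger receptor of sinusoidal endothelium, fell from 634 to 52.4 CPM and from 688 to 62.4 CPM. Markers of pericytes and smooth muscle (8 of 8), osteoblasts (8 of 8) and chondrocytes (8 of 8) were also lower in both sexes, and of 6 erythroid markers 2 rose and 4 did not pass the test in each sex.

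Each factor was then related to the endothelial list, as the log2 ratio of its count to the summed counts of the 15 markers in the same library, and tested over the 12 libraries by a two-sided exact permutation of age within sex, whose smallest possible p is 0.005. There were 8 such tests for each list. Relative to the endothelial list, 7 of the 8 factors were higher at 65 weeks. The summed endothelial markers themselves were 15.2-fold lower at 65 weeks in females and 22.1-fold lower in males. Only 5.50% to 11.6% of genes tested in females had a log2 fold change at or below that of a given factor. In males it was 3.72% to 14.95%. Most other genes would therefore also be higher on this ratio, so the rise does not set the factors apart. The share of all genes that rose on it was not computed. For every 100 endothelial counts, *Cxcl12* had 135, 136 and 150 counts in young females and 131, 136 and 124 in young males. The same measure was 329, 357 and 461 in old females and 589, 454 and 539 in old males, without overlap of the ages. Averaged over the sexes the log2 ratio was higher by 1.72 for *Cxcl12*, 2.06 for *Kitl*, 2.17 for *Csf1* and 1.67 for *Lepr* (exact permutation p = 0.005 for each). It was higher by 0.84 for *Adipoq* (exact permutation p = 0.01), by 1.00 for *Ebf3* and by 0.79 for *Foxc1* (exact permutation p = 0.015 for both). For these 3 genes the ages did not overlap in 1 of the 2 sexes. That sex was female for *Adipoq*, with a difference of 1.19 beside 0.50 in males. It was male for *Ebf3* (1.63 beside 0.36 in females) and *Foxc1* (1.18 beside 0.41). *Il7* was the exception, with a difference of 0.29 and overlapping ages in both sexes (exact permutation p = 0.09). With the mean log2 count of the 15 markers as the denominator in place of their sum the difference of *Il7* was 0.62, and all 8 then had a p under 0.05. It was 0.46 without the most abundant marker and 0.44 with a pseudocount of 5, and all 8 had an exact permutation p under 0.05 in both settings. The exception of *Il7* thus depended on the setting.

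Relative to the summed counts of the 20 reticular stromal genes, 7 of the 8 factors were lower at 65 weeks. The difference in the log2 ratio was −2.12 for *Il7*, −1.62 for *Foxc1*, −1.57 for *Adipoq*, −1.42 for *Ebf3*, −0.74 for *Lepr*, −0.69 for *Cxcl12* and −0.35 for *Kitl* (exact permutation p = 0.005 for each). *Csf1* differed by −0.24 (exact permutation p = 0.17). For the 4 factors nearest to 0 this depended on *Vcam1*, the most abundant of the 20 genes by mean CPM over the 12 libraries. Without it *Cxcl12* differed by −0.16 and *Lepr* by −0.21, *Kitl* was higher by 0.18 and *Csf1* by 0.29, and the calls of *Il7*, *Adipoq*, *Ebf3* and *Foxc1* were left. Another gene of the list, *Hp* (haptoglobin), did not fall either. Its mean was 412 CPM in young and 450.5 CPM in old females, and 419 CPM in young and 585 CPM in old males. The 20 genes summed to 9588 CPM in young females and 10801 CPM in young males, of which *Vcam1* held 1476 and 2150 CPM. In old females and males they summed to 2816 and 3121 CPM, of which *Vcam1* held 1311 and 1224 CPM. How far the calls of *Il7*, *Adipoq*, *Ebf3* and *Foxc1* depend on *Hp* was not tested.

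**Figure D3:**
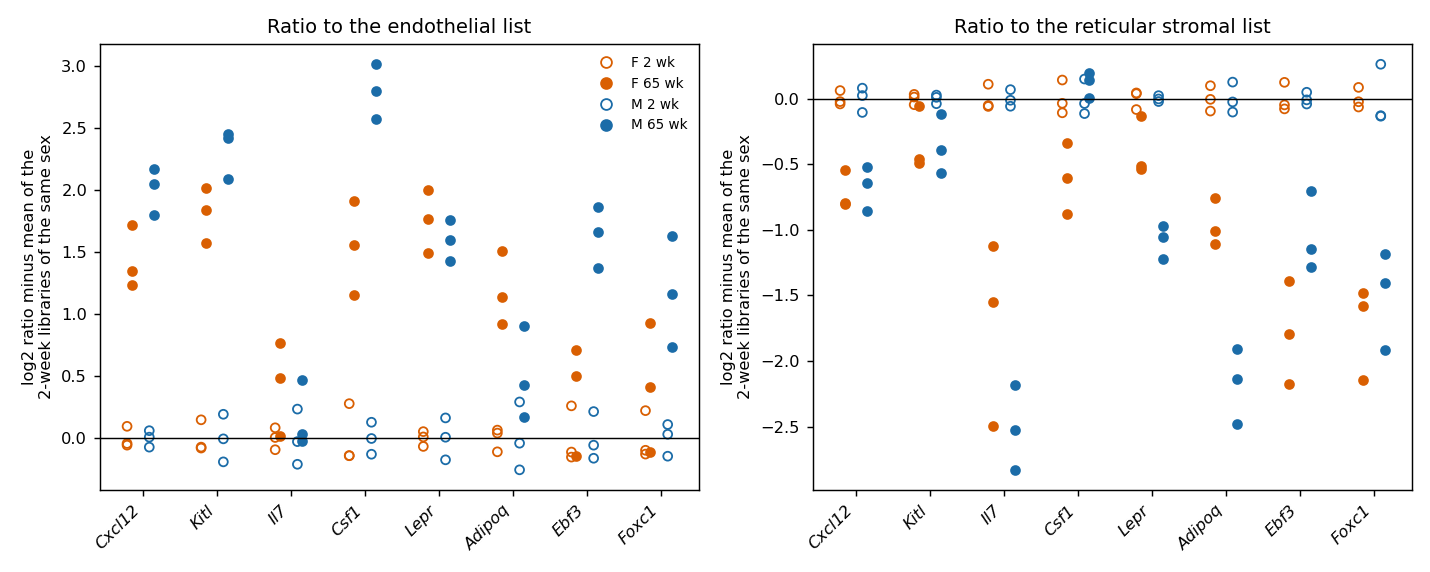
Log2 ratio of each factor to the summed endothelial markers (left) and to the summed reticular stromal genes (right) in each library, less the mean of the 2-week libraries of the same sex; open points are 2-week and filled points 65-week libraries, and each point is 1 library. On the left the filled points of *Cxcl12*, *Kitl*, *Csf1* and *Lepr* all lie above the open ones, and on the right those of every factor but *Csf1* all lie below them.

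At 2 weeks none of the 8 factors differed between males and females by edgeR's quasi-likelihood test, with adjusted p of 0.328 to 0.956, beside 0.0332% of all genes called. None had an unadjusted p under 0.05, beside 17.8% of all genes, and DESeq2 called 0, beside 2.96%. The male and female libraries overlapped for all 8. The widest log2 difference was that of *Lepr*, 0.30 higher in males, with a 95% interval of −0.05 to 0.65, and that of *Csf1* was −0.09 (−0.32 to 0.14).

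At 65 weeks edgeR again called 0 of the 8, beside 0.0420% of all genes, with 3 at an unadjusted p under 0.05, beside 10.4% of all genes, and DESeq2 called 1, *Adipoq*, beside 2.79%. *Adipoq* was lower in males than in females by a log2 difference of −0.99 (SE 0.231, 95% interval −1.52 to −0.46, edgeR adjusted p = 0.196, DESeq2 adjusted p = 0.00457). *Csf1* was higher in males by 0.58 (95% interval 0.13 to 1.03, edgeR adjusted p = 0.35) and *Ebf3* by 0.79 (0.10 to 1.48, adjusted p = 0.414). The libraries of the sexes did not overlap for 2 of the 8, *Adipoq* and *Csf1*, as was the case for 15.5% of all genes. *Il7* differed by −0.83 and *Lepr* by −0.41, with intervals of −1.77 to 0.11 and −0.83 to 0.02, and *Cxcl12*, *Kitl* and *Foxc1* by 0.21, 0.20 and 0.23. The summed neutrophil markers were at 11419 to 15052 CPM in the 65-week female libraries and at 16622 to 24782 CPM in the male ones, and their part in these differences was not tested.

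Whether the fall with age differed between the sexes was examined with an interaction term fitted to the 12 libraries. By edgeR 0 of the 8 passed, beside 0.00635% of all genes, 4 had an unadjusted p under 0.05, beside 11.9%, and DESeq2 called 1, beside 2.50%. That gene was again *Adipoq*, whose log2 fold change with age was lower in males by 1.23 (interaction −1.23, SE 0.314, 95% interval −1.91 to −0.55, edgeR adjusted p = 0.164, DESeq2 adjusted p = 0.0189). *Lepr* (−0.72) and *Il7* (−0.91) had the same sign and *Csf1* (0.65) the opposite one, with edgeR adjusted p of 0.32, 0.376 and 0.304. The female and male falls of *Cxcl12*, *Kitl* and *Foxc1* had adjusted interaction p-values of over 0.05, as did that of *Ebf3* at 0.68 (adjusted p = 0.436).

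**Figure D4:**
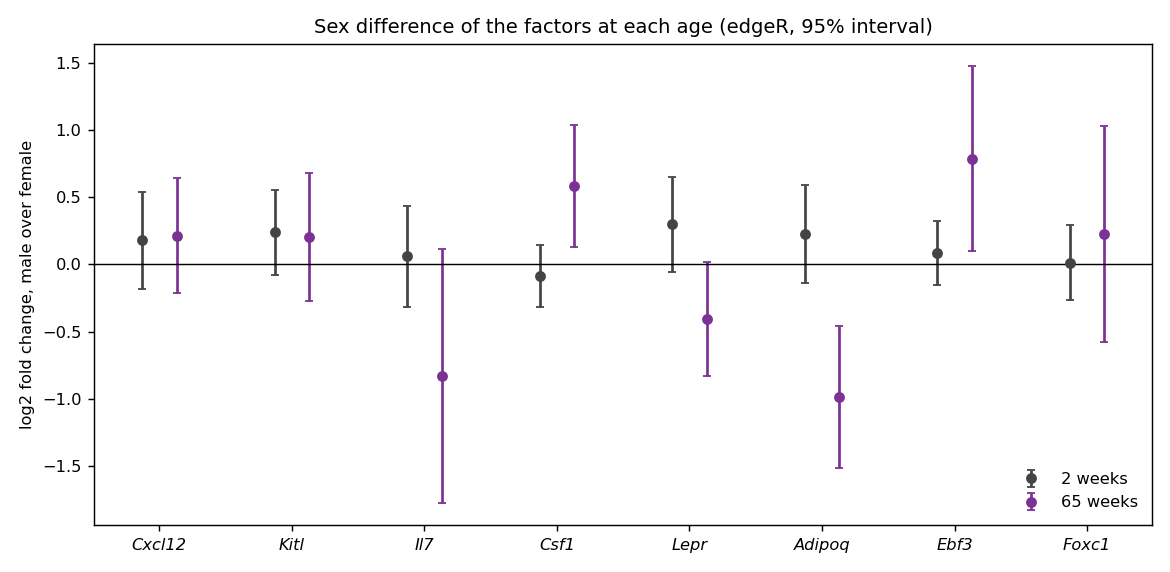
Log2 fold change of males over females (points) with its 95% interval (bars) for each factor at 2 and at 65 weeks, each from 6 libraries. The intervals at 2 weeks all include 0, and those at 65 weeks leave 0 out for *Adipoq* (−0.99), *Csf1* (0.58) and *Ebf3* (0.79).

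In 3 of the 4 groups 1 library was the lowest for nearly all factors. Of the 3 young female libraries, replicate 3 was the lowest and replicate 2 the highest for 8 of 8 factors and for 15 of 15 endothelial markers, while 45.9% of all genes tested were lowest in replicate 3 and 49.2% highest in replicate 2. Among old females replicate 1 was the lowest for 7 of 8 factors, beside 33.4% of all genes, but for 5 of 15 endothelial markers. Among old males replicate 2 was the lowest for 7 of 8 factors, beside 36.2% of all genes, and for 9 of 15 endothelial markers. Young males had no such library, since the lowest value was in replicate 2 for 3 factors and in replicate 3 for 5, whereas all 15 endothelial markers were lowest in replicate 2.

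The genes whose profiles over the 12 libraries were most like each factor were found by the root mean square difference of log2 CPM after centring each gene, among 13487 genes. As the age groups differed for all 8 factors, this measure mostly describes the size of the fall. The closest pair among the factors themselves was *Cxcl12* and *Kitl*, at 0.19, followed by *Cxcl12* and *Lepr* at 0.23, *Kitl* and *Csf1* at 0.25, and *Kitl* and *Lepr* and *Ebf3* and *Foxc1*, both at 0.30, and the farthest was *Il7* and *Csf1* at 1.08. Nearest to *Cxcl12* were *C130074G19Rik* (0.07), *Synpo* (0.10), an actin-associated protein, and *Esm1* (0.10), a secreted proteoglycan named for endothelial cells. *Kitl* was nearest to *Chrdl1* (0.14), a BMP antagonist, *Ddr2* (0.16), a collagen receptor, and *Raph1* (0.16), and *Lepr* to *Pros1* (0.12), protein S, *Elk3* (0.14), an ETS factor, and *Cp* (0.15), ceruloplasmin. For *Csf1* they were *Gas6* (0.20), a ligand of TAM receptors, *Cc2d2a* (0.23) and *Lpl* (0.23), and for *Adipoq* *Crispld1* (0.21), *Cpxm1* (0.21) and *Adh1* (0.22), an alcohol dehydrogenase. *Ebf3* was nearest to *Ackr4* (0.15), an atypical chemokine receptor, *Sobp* (0.20) and *Pappa* (0.21), a protease of IGF binding proteins, and *Foxc1* to *Tln2* (0.16), *Exoc3l4* (0.18) and *Prrx1* (0.18), a mesenchymal transcription factor. *Il7* had *Shd* (0.16), *Dock6* (0.22) and *Acer2* (0.25), a ceramidase. Of these 24 genes, 4 (*Chrdl1*, *Gas6*, *Lpl* and *Prrx1*) belong to the 20 reticular stromal genes and 0 to the 15 endothelial markers, which do not include *Esm1*. Most endothelial markers fell further than the factors, with a median log2 fold change of −4.25 in females and −4.58 in males. This measure could therefore hardly place them near. The reticular stromal genes had medians of −2.05 and −1.98, nearer to the −2.46 and −2.72 of the factors. Neither the 4 nor the 0 therefore bears on the cell type.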

How the data were processed

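Poly(A) RNA, per the labels, of 12 libraries (4 groups of 3) was prepared with a TruSeq Total RNA kit and sequenced as paired reads of 100 nt. The authors deposited 1 table of raw read counts per Ensembl gene. The submitters' processing notes name TopHat2, HTSeq and mm9, whereas the study's methods name other tools and the GRCm39 build, so the aligner and build of the counts are not settled. Whether strand was used is not given in the sources used here. *Il7*, *Csf1*, *Adipoq* and *Ebf3* share exon bases with genes of the opposite strand (up to 11.7% of the exons, for *Il7*), whose reads then cannot be told apart. Symbols, exon lengths and GRCm39 coordinates came from GENCODE M39, which held 31052 of the 37620 identifiers and 99.3% of all counts. Promoters came from a RefSeq table of GRCm38.p6.

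Counts were analysed in R 4.3.3 by edgeR 4.0.16, keeping genes by filterByExpr (minimum count 10), scaling by TMM and applying the quasi-likelihood F test on the 6 libraries of each comparison (all 12 for the interaction), with Benjamini-Hochberg adjustment over all genes tested and a threshold of 0.05. CPM used library totals without TMM, so the folds between group means differ from the fitted log2 fold changes. Intervals are 95% intervals. Ratios to lists took a pseudocount of 0.5 and 400 relabelings of age within sex. Libraries of a group differed by more than sampling noise (chi-square per degree of freedom of 26.6 to 103). The scripts were tested on simulated data. Among the 8 factors, counts limit the precision most for *Il7* at 65 weeks, with as few as 25 counts. Some other named genes had fewer at 65 weeks, such as *Ackr3* (as few as 7) and *Plin1* (as few as 6). Alternatives were DESeq2 1.42.0, other scaling, filters, thinning, a block and leaving out each library. The members, gene lists and tests were chosen with earlier results of these data known. All 8 members, the 4 most abundant genes of a list (by mean CPM over the 12 libraries, without exon length) and the 3 nearest profiles per member were named by a fixed rule, and *Emcn*, *Lep*, *Il7r* and *Ackr3* in addition to it. Of 116 further list genes, 1 had no match. No column of the table was left out.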

Additional observations from a re-analysis of the deposited data

Results flagged for a closer look

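The ratio of *Csf1* to the summed reticular stromal genes was singled out because all 3 female libraries of 65 weeks lay below the mean of their 2-week libraries, by 0.34 to 0.88 on the log2 scale, and all 3 male ones lay above theirs, by 0.01 to 0.20. The age difference in males minus that in females was 0.72. For every 100 counts of the reticular stromal genes there were 0.926, 0.973 and 1.10 *Csf1* counts in 2-week females and 0.541, 0.789 and 0.656 in 65-week females. In males these values were 0.775, 0.818 and 0.931 at 2 weeks and 0.963, 0.927 and 0.843 at 65 weeks, where the ages overlapped. These opposite directions depended on *Vcam1*. Without it there were 1.10, 1.13 and 1.32 *Csf1* counts per 100 in 2-week females against 1.10, 1.39 and 1.22 in 65-week females, so that the ages overlapped, and 1.0, 1.04 and 1.10 in 2-week males against 1.52, 1.44 and 1.51 in 65-week males. The males minus females difference was then 0.45. The difference of this ratio between the sexes was not tested. With 3 libraries in a group, no group was examined for outlying libraries.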

How the results depend on the processing

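The fall of the 8 factors with age kept its direction and its call in 240 of 240 recomputed values, with 8 of 8 called in each sex also when any library was left out. DESeq2 called 1 of 8 factors for sex at 65 weeks and 1 of 8 for the interaction, *Adipoq* in both (log2 −0.99 and −1.21), where edgeR called 0; the cause was not tested. Its adjusted p ranged over the alternatives from 0.00457 to 0.597 for sex and from 0.0189 to 0.387 for the interaction. Without *Vcam1*, 4 of 8 ratios to the reticular stromal list stayed called after adjustment over the 8 ratios, all lower at 65 weeks. Of the 5 with an exact permutation p under 0.05, the other was *Csf1*, which was higher (adjusted p = 0.056). *Kitl* (0.18) and *Csf1* (0.29) changed sign, as did *Csf1* with the mean log2 count of the list (0.0572). With that mean *Kitl* (−0.0453) also lost its call, and 6 of 8 ratios were called. Leaving out each library in turn gave counts of 7 to 8 for the endothelial ratio and 7 for the stromal ratio. It turned the sign of differences near 0: male against female at 2 weeks for *Il7* (−0.0853 to 0.258), *Csf1* (−0.146 to 0.0254) and *Foxc1* (−0.0817 to 0.132), at 65 weeks for *Foxc1* (−0.00606 to 0.483), and the interaction for *Cxcl12* (−0.18 to 0.19), *Kitl* (−0.23 to 0.13) and *Foxc1* (−0.0400 to 0.439).

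Over all genes, edgeR called 5 for sex at 2 weeks, 6 at 65 weeks and 1 for the interaction, and DESeq2 called 447, 398 and 394. At 65 weeks the count was 105 without a filter, 254 with all 12 libraries in 1 model, 15 without male replicate 2 and 830 without male replicate 3, which gave 750 for the interaction. At 2 weeks it was 8 with all 12 libraries in 1 model, 11 without female replicate 2 and 8 without male replicate 3. Scaling by library totals gave 10 at 65 weeks, moved the median age difference of all genes to −0.13 in females and −0.11 in males, and changed the split of higher and lower calls from 4568 and 4462 to 3668 and 5451 in females and from 4041 and 4257 to 3304 and 4865 in males. The interaction count was 7 without a filter, 0 with a threshold of 0.01, with thinning or with the block, and 0 to 2 without other libraries. Replicate numbers named no pairs in the labels, and deviations of same-numbered libraries had correlations of −0.42 to 0.17. With the replicate number as a block, 8, 8, 0, 0 and 0 of the 8 factors were called in the 5 comparisons, and 8269, 7593, 5, 7 and 0 of all genes.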
